A study of Mus musculus with 9 samples.

Results

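The small heat shock proteins of the heart and the cochaperones that work beside them were followed through the ventricles of neonatal mice with and without Arid1a in cardiomyocytes. The set held 10 of the 38293 genes in the count table, chosen by name: 7 small heat shock proteins (Hspb1, Hspb2, Hspb3, Hspb6, Hspb7, Hspb8 and Cryab) and 3 cochaperones (Bag3, Dnajb6 and Unc45b). Ventricular RNA was taken at postnatal day 7 from 5 Arid1a f/f control littermates and 4 aMHC-Cre;Arid1a f/f cKO mice. Both groups carried the floxed Arid1a alleles, and the cKO mice in addition carried a Cre transgene driven by the cardiomyocyte promoter αMHC. Arid1a encodes a part of SWI/SNF, a complex that remodels chromatin. No control carried the Cre transgene alone, so Cre and the loss of Arid1a cannot be told apart.

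Small heat shock proteins share an α-crystallin domain and hold unfolding proteins in a state from which ATP-driven chaperones can refold them. Muscle is rich in them, and there they sit on the sarcomere, the desmin filaments and filamin. The cochaperone BAG3 joins HSPB8 to HSP70 and directs damaged filamin to autophagy, a route called chaperone-assisted selective autophagy.

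The libraries held 31011055 to 40073801 counts, and levels are given as CPM, the usual count unit relative to library size, with library totals adjusted by TMM. Arid1a was at 140 ± 8.84 CPM in the controls (SD, n = 5) and at 106 ± 5.44 CPM in the cKO (SD, n = 4), without overlap, and its log2 fold change was -0.39 with an SE of 0.06 (adjusted p = 0.00132 in edgeR's quasi-likelihood fit). The libraries fell apart by the ribosomal protein gene Rps3a3, which was at 0.345 to 0.521 CPM in control replicates 1 and 2 and cKO replicates 1 to 3 and at 99.7 to 112 CPM in control replicates 3 to 5 and cKO replicate 4. Rps3a1 went the other way, at 253 to 276 CPM in the Rps3a3-low and 70.8 to 75.7 CPM in the Rps3a3-high libraries. Why the libraries split was not tested. Because of the split, differences within the Rps3a3-low and the Rps3a3-high libraries are given beside the pooled ones, and the high libraries hold only 1 cKO sample. The 10 most abundant genes held 17.06 to 18.18% of the counts in the controls and 14.16 to 16.47% in the cKO, and mitochondrial genes 12.19 to 13.91% and 10.03 to 12.73%. Both shares were lowest in cKO replicate 2, the highest library for Hspb1, Hspb2, Hspb7 and Cryab. The cardiomyocyte markers summed to 60970 to 70980 CPM in the controls and 55010 to 60270 CPM in the cKO, and 2 of 10 fell (Myl2 and Pln). Smooth muscle and mural markers summed to 1880 to 2246 against 3610 to 4892 CPM with 2 of 8 higher (Acta2 and Cnn1). Most of that rise was Acta2 alone, with a mean of 661 CPM in the controls and 2834 CPM in the cKO. The remaining ones did not pass, and Myh11 among them had a log2 fold change of -0.30. Fibroblast markers summed to 6923 to 8213 against 8559 to 9507 CPM with 4 of 8 higher. Endothelial markers summed to 1405 to 1489 against 1347 to 1473 CPM with 1 of 6 lower. Macrophage markers (81.6 to 140.3 against 103 to 196 CPM) and erythroid markers (386 to 763 against 608 to 948 CPM) had no gene past the test. Of the skeletal muscle markers, Myh1, Myh2, Myh4, Actn3 and Myog were too low to test, and the other 3 summed to 2.08 to 4.57 against 5.20 to 6.63 CPM. Atrial markers summed to 60.5 to 137 against 127 to 190.0 CPM, with 1 of 3 tested higher (Myl7, mean 44.9 against 102.8 CPM). Myl4 (log2 fold change 0.16) and Sln (-1.25) did not pass. The part of these shifts in the results below was not tested. In whole-ventricle RNA, fewer cells of a type and less RNA per cell cannot be told apart.

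All 10 genes passed the filter on low counts. At an adjusted p under 0.05, 3 were higher in the cKO (Hspb1, Hspb2 and Cryab), where 8.25% of all 15318 genes tested were higher, and 1 was lower (Hspb8), where 8.03% of all genes were lower. With a fold change over 1.5 as well, Hspb1 and Hspb2 were called higher, against 4.01% of all genes, and Hspb8 was called lower, against 2.72%. Values per library are listed in the order of the replicate numbers. With trends on GC content and length removed, the log2 fold changes were 0.51 for Hspb1, 0.41 for Hspb2, 0.31 for Cryab and -0.95 for Hspb8: all 4 still passed the adjusted p, but Hspb1 and Hspb2 no longer reached 1.5-fold. For Hspb1, Hspb2, Cryab and Hspb8 the groups did not overlap, as for 16.7% of all genes. The other 6 members (Hspb3, Hspb6, Hspb7, Bag3, Dnajb6 and Unc45b) did not pass the test.

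The promoter windows of Hspb8, Hspb1 and Bag3 are shown because these genes hold the same 8 letters near their start while Hspb8 was lower, Hspb1 higher and Bag3 not past the test in the cKO. Each window runs from 250 bases before to 50 bases after the RefSeq start on GRCm38.p6 and is written 5′ to 3′ on the strand of the gene. Capitals mark the inverted pair GAANNTTC, a piece of the heat shock element to which heat shock factors bind. Hspb8 is shown at chr5:116422815-116423114 (minus strand), Hspb1 at chr5:135887669-135887968 (plus strand) and Bag3 at chr7:128523333-128523632 (plus strand).
Hspb8: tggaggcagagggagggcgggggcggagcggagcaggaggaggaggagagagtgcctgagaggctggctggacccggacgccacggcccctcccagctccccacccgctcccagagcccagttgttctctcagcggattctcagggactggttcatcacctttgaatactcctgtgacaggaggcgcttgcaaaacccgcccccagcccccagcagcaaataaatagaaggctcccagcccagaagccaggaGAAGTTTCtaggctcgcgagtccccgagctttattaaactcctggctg
Hspb1: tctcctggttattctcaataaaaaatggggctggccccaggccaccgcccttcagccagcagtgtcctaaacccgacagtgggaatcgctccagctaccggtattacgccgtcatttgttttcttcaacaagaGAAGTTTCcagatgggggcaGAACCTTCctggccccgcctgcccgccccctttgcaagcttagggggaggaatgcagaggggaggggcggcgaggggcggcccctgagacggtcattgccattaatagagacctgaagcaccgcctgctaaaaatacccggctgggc
Bag3: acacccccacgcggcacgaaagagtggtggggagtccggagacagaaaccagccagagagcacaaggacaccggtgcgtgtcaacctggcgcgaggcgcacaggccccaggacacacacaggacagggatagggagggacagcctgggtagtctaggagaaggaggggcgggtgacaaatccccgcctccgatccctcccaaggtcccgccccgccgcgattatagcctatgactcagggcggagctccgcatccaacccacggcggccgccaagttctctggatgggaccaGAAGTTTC
The letters GAAGTTTC began 2 bases after the start of Hspb8, 42 bases after that of Bag3 and 117 bases before that of Hspb1, which had a second match, GAACCTTC, 97 bases before its start. A window was found for 8 of the 10 members, 10 windows in all. None was found for Hspb2 or Cryab, both higher in the cKO, so their promoters were not searched. GAANNTTC was in 7 of the 10 windows, against 7.9% of all 32851 windows, and the 7 belong to 6 genes (Bag3, Dnajb6, Hspb1, Hspb3, Hspb6 and Hspb8), since the overlapping windows of Dnajb6 hold the same site. GAAGTTTC itself was also in the second window of Hspb6, 120.0 bases before the start. The other order of the pair, TTCNNGAA, was in 2 of the 10 (both of Dnajb6, where it shares bases with GAANNTTC) and in 8.5% of all windows. GGAATG, the TEAD motif, was in 2 of the 10 (Hspb1, 49 bases before the start, and Hspb7) and in 14.7% of all windows. The MEF2 motif was in 1 (Hspb3; 3.2% of all windows), AAGGTCA, the motif of estrogen-related receptors, in 0 (4.7%) and the CArG box of serum response factor in 0 (1.6%). Both strands were searched. These matches describe letters in a window. They were not tested as binding sites or against the changes in the cKO.

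Hspb8, which encodes the partner of BAG3 in chaperone-assisted selective autophagy, had the largest log2 fold change of the 10 genes when all libraries were pooled. Within the Rps3a3-high libraries alone those of Hspb1 and Hspb2 were larger in size. Its level was 165, 152, 131, 148 and 132 CPM across the controls and 66.5, 89.6, 75.7 and 86.4 CPM across the cKO. Every cKO library lay below every control. The means were 146 ± 14.2 CPM (SD, n = 5) and 79.6 ± 10.5 CPM (SD, n = 4), so that Hspb8 fell by 45.4%, a log2 fold change of -0.87 (SE 0.10, 95% interval -1.09 to -0.66, adjusted p = 0.000104 in edgeR's quasi-likelihood fit). It ranked 187 of 15318 genes by p. The log2 difference was -1.04 within the Rps3a3-low libraries and -0.66 within the Rps3a3-high ones. Among the 20 other settings tried, which include leaving out each library, Hspb8 passed both thresholds in all 20, with log2 fold changes from -1.03 to -0.80.

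Hspb1, which encodes HSP27, a stress-inducible chaperone that binds actin filaments, was at 65.4, 61.1, 53.0, 45.1 and 52.9 CPM across the controls and at 79.8, 109.9, 86.0 and 90.7 CPM across the cKO. Every cKO library lay above every control, with cKO replicate 2 the highest. The mean rose from 55.5 ± 7.93 to 91.6 ± 13.0 CPM, by 65.1%, and the log2 fold change was 0.72 (SE 0.12, 95% interval 0.47 to 0.97, adjusted p = 0.00128 in edgeR's quasi-likelihood fit). The difference was 0.52 within the Rps3a3-low libraries and 0.85 within the high ones. In a fit of the Rps3a3-low libraries alone Hspb1 did not pass (0.54, adjusted p = 0.0752), while in the fit of all libraries that held the Rps3a3 class as a term it did (0.66, adjusted p = 0.0012).

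Cryab encodes αB-crystallin, the chaperone of desmin filaments. It was at 594, 585, 529, 500.5 and 493 CPM across the controls and at 649, 763, 704 and 761 CPM across the cKO. The groups did not overlap, and within the controls replicates 1 and 2 were the highest. The mean rose from 540.3 ± 46.9 to 719 ± 54.0 CPM, by 33.1%, with a log2 fold change of 0.41 (SE 0.08, 95% interval 0.24 to 0.58, adjusted p = 0.00336 in edgeR's quasi-likelihood fit), which is under the 1.5-fold threshold. It was 0.26 within the Rps3a3-low libraries and 0.58 within the high ones. Cryab did not pass in the Rps3a3-low libraries alone (adjusted p = 0.167) and passed where the Rps3a3 class of the library was a term of the fit (0.39, adjusted p = 0.00373).

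Hspb2 encodes a muscle small heat shock protein that binds the myotonic dystrophy kinase, and its gene lies head to head with Cryab on chromosome 9. Hspb2 covers chr9:50751078-50752354 on the minus strand and Cryab chr9:50751325-50756636 on the plus strand, with overlapping exons and, over the 9 libraries, 14221 against 195556 counts. The strand setting of the counting is not given in the sources used here. How reads of the shared stretch were assigned, or whether they were counted, is therefore not known. Hspb2 was at 43.2, 45.4, 32.1, 31.6 and 30.2 CPM across the controls and at 47.5, 71.6, 50.4 and 52.2 CPM across the cKO. The groups did not overlap, but control replicates 1 and 2 came close to cKO replicate 1, and cKO replicate 2 stood above the rest. The mean was 36.5 ± 7.20 CPM in the controls and 55.4 ± 10.9 CPM in the cKO, 51.8% higher, with a log2 fold change of 0.60 (SE 0.15, 95% interval 0.26 to 0.94, adjusted p = 0.0211 in edgeR's quasi-likelihood fit). The difference was 0.32 within the Rps3a3-low libraries and 0.73 within the high ones. Its adjusted p lay near the threshold: by the same test it was 0.0529, 0.0504 and 0.0553 without control replicate 3, 4 or 5, at log2 fold changes of 0.56, 0.55 and 0.54, and 0.054 without cKO replicate 2, at 0.45. In the Rps3a3-low libraries alone it was 0.346, at 0.35. Where the Rps3a3 class of the library was a term of the fit it was 0.0156, at a log2 fold change of 0.50, which is under the 1.5-fold threshold.

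**Figure D1:**
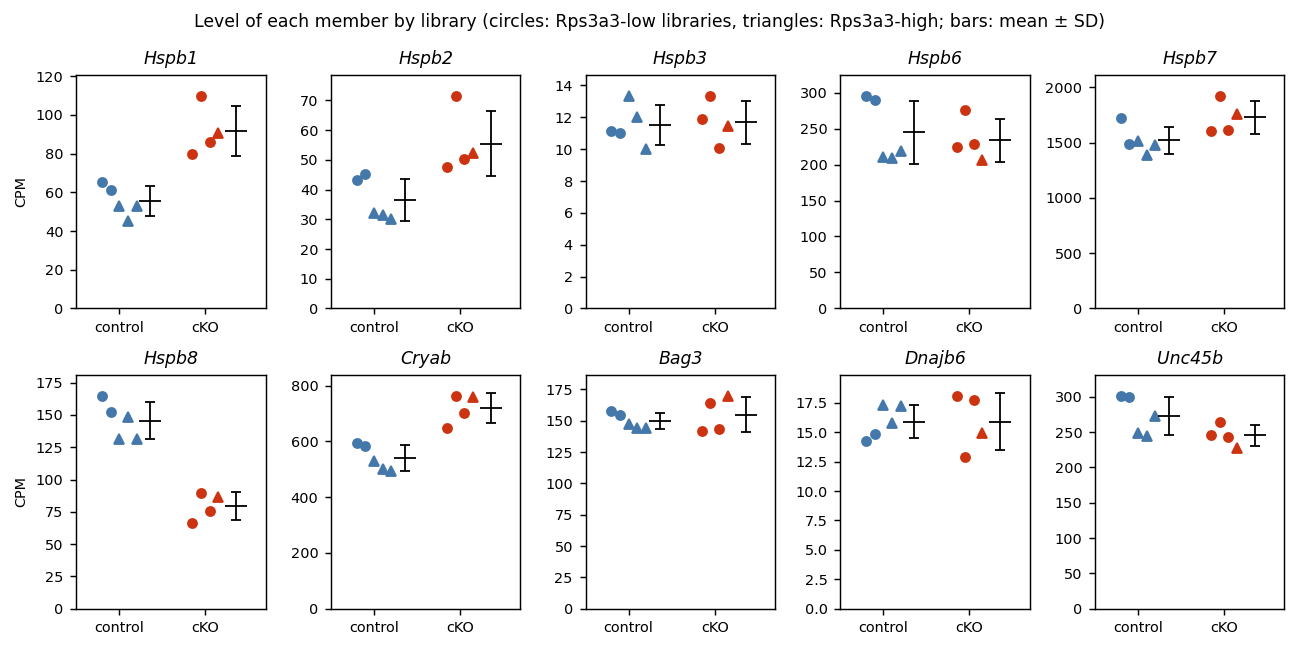
Level of each of the 10 genes in CPM (y axis, from 0) in the 5 control libraries (blue) and the 4 cKO libraries (red), with the mean ± SD beside them. Circles are Rps3a3-low and triangles Rps3a3-high libraries. The groups do not overlap for Hspb1, Hspb2, Hspb8 and Cryab, and only Hspb8 is lower in the cKO among these 4.

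The other small heat shock proteins did not pass the test. Hspb7, a cardiac small heat shock protein that acts on actin thin filaments and filamin, was at 1724, 1491, 1519, 1392 and 1477 CPM in the controls and at 1610, 1924, 1616 and 1761 CPM in the cKO. Control replicate 1 lay within the cKO range. The log2 fold change was 0.18 (SE 0.08, 95% interval 0.02 to 0.35, adjusted p = 0.134 in edgeR's quasi-likelihood fit), 0.09 within the Rps3a3-low and 0.27 within the high libraries.

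Hspb6, or HSP20, a phosphoprotein of the contractile apparatus that responds to adrenergic signalling, was at 296, 290, 211, 209.7 and 219 CPM in the controls and at 224, 276, 229 and 206 CPM in the cKO. Control replicates 1 and 2, which are Rps3a3-low, were the highest of all 9 libraries, and the groups overlapped. The log2 fold change was -0.07 (SE 0.13, 95% interval -0.34 to 0.21, adjusted p = 0.765 in edgeR's quasi-likelihood fit), with -0.27 within the Rps3a3-low and -0.05 within the high libraries. The gene shares exons with Proser3 and Lin37 on the opposite strand, which had 2479 and 3007 counts against 74876 for Hspb6.

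Hspb3, a muscle small heat shock protein that assembles with HSPB2, was at 11.2, 11.0, 13.4, 12.1 and 10.02 CPM in the controls and at 11.9, 13.3, 10.1 and 11.4 CPM in the cKO. The ranges lay over each other. The log2 fold change was 0.02 (SE 0.11, 95% interval -0.22 to 0.26, adjusted p = 0.931 in edgeR's quasi-likelihood fit), an interval that does not reach the log2 fold change of Hspb1 or of Hspb8. The library sets gave 0.07 (Rps3a3-low) and -0.04 (Rps3a3-high).

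None of the 3 cochaperones passed the test, and their point estimates lay between -0.16 and 0.05. Bag3 was at 158, 155, 147, 144 and 144 CPM in the controls and at 142, 164, 144 and 169.7 CPM in the cKO, with overlapping ranges. The log2 fold change was 0.05 (SE 0.07, 95% interval -0.10 to 0.20, adjusted p = 0.674 in edgeR's quasi-likelihood fit), with -0.07 within the Rps3a3-low and 0.23 within the high libraries. Since Bag3 varied little while its partner Hspb8 fell, the ratio of Bag3 to Hspb8, on the RPKM scale, was 0.731 to 0.852 in the controls and 1.39 to 1.62 in the cKO, a description that follows from the 2 levels.

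Unc45b, which encodes the myosin-folding chaperone of striated muscle and acts with HSP90, was at 301, 300.2, 249, 245 and 272 CPM in the controls and at 246.5, 264, 243 and 227 CPM in the cKO. The groups overlapped, and control replicates 1 and 2 were the highest. The log2 fold change was -0.16 (SE 0.08, 95% interval -0.33 to 0.01, adjusted p = 0.205 in edgeR's quasi-likelihood fit), with -0.26 within the Rps3a3-low and -0.17 within the high libraries. It passed as lower where the Rps3a3 class of the library was a term of the fit (-0.22, adjusted p = 0.0169) and with trends on GC content and length removed (-0.19, adjusted p = 0.0146).

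Dnajb6, a J-domain cochaperone of HSP70 at the Z-disc that keeps aggregation-prone proteins soluble, was at 14.2, 14.9, 17.3, 15.8 and 17.2 CPM in the controls and at 18.1, 12.9, 17.7 and 14.9 CPM in the cKO. Both group means were 15.9 CPM, and the cKO libraries spanned a wider range than the controls. The log2 fold change was 0.00 (SE 0.11, 95% interval -0.25 to 0.25, adjusted p = 0.998 in edgeR's quasi-likelihood fit), with opposite signs in the library sets, 0.14 within the Rps3a3-low and -0.16 within the high libraries. The gene had 4943 counts over the 9 libraries, the fewest per length of the set, and 2 processed pseudogenes lie within it on the opposite strand.

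**Figure D2:**
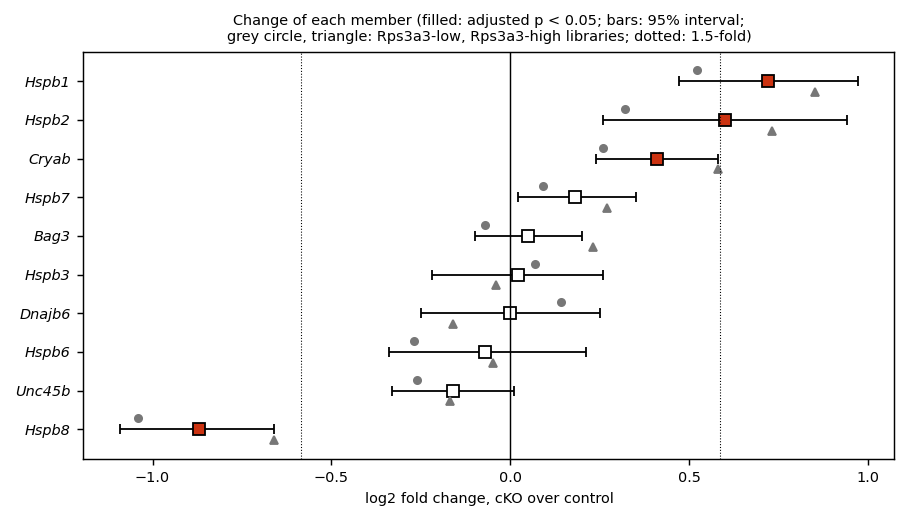
Log2 fold change of each gene in the cKO over the control (x axis), with its 95% interval. Filled squares passed an adjusted p of 0.05, dotted lines mark 1.5-fold, and grey circles and triangles give the difference within the Rps3a3-low and Rps3a3-high libraries. Hspb1, Hspb2 and Cryab lie right of 0 and Hspb8 left of it in both library sets.

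To compare genes with each other, levels were divided by exon length (RPKM, CPM per kilobase of exon). In the controls Hspb7 had the highest level, 549 ± 44.5 RPKM (SD, n = 5), place 41 among all genes, followed by Cryab at 365 ± 31.7 RPKM, place 67. Hspb6 followed at 106.5 ± 19.0 RPKM and Hspb8 at 74.7 ± 7.30 RPKM. Each of these 4 lay above the next without overlap of the control libraries. Unc45b (60.9 ± 5.98 RPKM), Bag3 (58.4 ± 2.55 RPKM), Hspb1 (53.8 ± 7.69 RPKM) and Hspb2 (43.8 ± 8.63 RPKM) came next, and neighbours among these overlapped. Hspb3 (14.8 ± 1.60 RPKM) and Dnajb6 (2.62 ± 0.229 RPKM) were the lowest and stood apart.

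In the cKO the order changed in the middle. Hspb7 (624 ± 53.6 RPKM), Cryab (486 ± 36.5 RPKM) and Hspb6 (102 ± 12.9 RPKM) stayed at the top, Hspb1 moved from place 7 to place 4 of the 10 (88.9 ± 12.6 RPKM) and Hspb2 from 8 to 5 (66.4 ± 13.1 RPKM). The cKO libraries of Hspb6 and Hspb1 overlapped, as did those of Hspb1 and Hspb2. Hspb8 moved from place 4 to place 8, at 40.8 ± 5.40 RPKM. Of the summed RPKM of the 7 small heat shock proteins, Hspb8 held 5.75 to 6.89% in the controls and 2.62 to 3.06% in the cKO, while Hspb1 held 3.96 to 4.68% and 5.95 to 6.72%. The share of Cryab was 29.4 to 31.3% and 32.5 to 35.5%, and that of Hspb7 42.5 to 47.2% and 43.1 to 44.7%. The sum itself was 1105 to 1366 RPKM in the controls and 1302 to 1586 RPKM in the cKO, with overlapping ranges. Hspb7 and Cryab thus made up most of the small heat shock protein RNA in every library of either group.

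**Figure D3:**
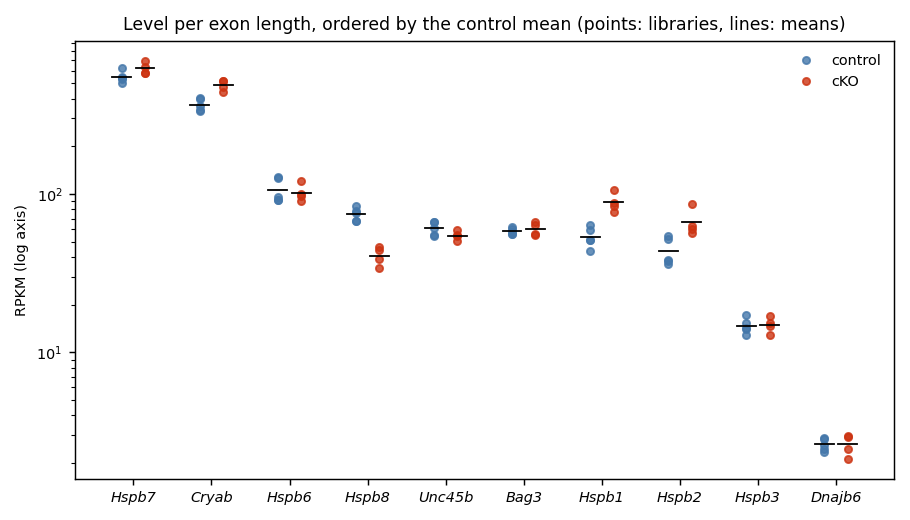
Level per exon length in RPKM (log y axis) of the 10 genes, ordered by the control mean, in the control (blue) and cKO (red) libraries, with lines at the means. Hspb7 and Cryab lie highest in both groups, and Hspb8 drops from 74.7 to 40.8 RPKM, below Bag3 and Unc45b.

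Genes around the set were read from 8 lists: chaperones, cochaperones and heat shock factors, the autophagy route that uses Bag3, and the sarcomere and filament proteins that small heat shock proteins bind. Of their 101 tested genes, 12 passed the adjusted p as higher (11.9%, beside 8.25% of all genes) and 3 as lower (2.97%, beside 8.03%). Of the 12, Des, Vim and Flnc are clients and not chaperones. The counts moved with the processing: they were 16 higher and 10 lower with trends on GC content and length removed, 6 lower with the Rps3a3 class as a term, 7 higher and 1 lower without cKO replicate 4, 5 lower without cKO replicate 1, and 4 higher and 0 lower in the Rps3a3-low libraries alone. The median log2 fold change of all genes was 0.01, and the medians of the lists lay between -0.08 and 0.11. Of the other small heat shock proteins, Hspb11 alone was measured well enough to test (0.11, adjusted p = 0.596 in edgeR's quasi-likelihood fit), and Cryaa, Hspb9 and Odf1 were too low.

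Of 18 tested genes of the HSP70 family and its nucleotide exchange factors, 2 were higher and 0 lower, with a median of 0.09. Hspa1l, an HSP70 gene best known from testis, rose from 4.49 ± 0.659 to 8.55 ± 1.28 CPM (0.93, adjusted p = 0.00112 in edgeR's quasi-likelihood fit). Hspa1b, the stress-inducible HSP70, was at 1.03 ± 0.107 and 1.59 ± 0.284 CPM (0.62, adjusted p = 0.0495 by the same test). Its call was lost when any 1 of the 9 libraries was left out (adjusted p 0.0522 to 0.161). Hspa1b has a near-identical copy, Hspa1a, so its reads may have been split or lost.

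Among 34 J-domain proteins, 3 were higher and 1 was lower, with a median of 0.00. Dnajc11, a mitochondrial protein of cristae organization, rose from 76.5 ± 4.13 to 93.9 ± 7.28 CPM (0.30, adjusted p = 0.0113 in edgeR's quasi-likelihood fit). Dnaja4 (0.21, adjusted p = 0.0231) and Dnajc27 (0.28, adjusted p = 0.0286) were also higher, and Dnajc15, a mitochondrial import cochaperone, was lower (-0.28, adjusted p = 0.0348). The adjusted p of these last 3 lay near the threshold: Dnaja4 no longer passed the adjusted p without control replicate 4 or 5 or cKO replicate 3 or 4, Dnajc27 without control replicate 1, 2 or 4 or any of cKO replicates 2, 3 and 4, and Dnajc15 without control replicate 2 or 4 or cKO replicate 2, 3 or 4. The adjusted p values without them reached 0.0749, 0.0733 and 0.0951, while over all 9 omissions the log2 fold changes stayed at 0.19 to 0.23, 0.25 to 0.31 and -0.32 to -0.22. In the Rps3a3-low libraries alone none of the J-domain genes named here passed (Dnajc11 at 0.23, adjusted p = 0.26 by the same test).

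HSP90 and its cochaperones gave 1 higher and 2 lower genes of 15, with a median of 0.02. Trap1, the mitochondrial HSP90, fell from 185 ± 6.30 to 150.2 ± 7.41 CPM (-0.30, adjusted p = 0.00309 in edgeR's quasi-likelihood fit). Smyd1, a muscle methyltransferase that works with Unc45b and HSP90 in myosin assembly, fell from 628 ± 36.8 to 534 ± 16.1 CPM (-0.23, adjusted p = 0.0194). Fkbp5, a glucocorticoid-inducible cochaperone, rose from 14.3 ± 1.96 to 20.7 ± 4.04 CPM (0.54, adjusted p = 0.0207). Smyd1 and Fkbp5 no longer passed the adjusted p when cKO replicate 2 was left out (adjusted p = 0.0502 and 0.0619) and when cKO replicate 4 was (0.0512 and 0.0688). In the Rps3a3-low libraries alone none of the genes named here passed (Trap1 at -0.31, adjusted p = 0.0693 by the same test).

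Of 10 chaperonin genes, Hspe1, the mitochondrial cochaperonin, was higher (0.36, adjusted p = 0.00249 in edgeR's quasi-likelihood fit), with a median of 0.01. Of the 4 heat shock factor genes, with a median of -0.08, Hsf4 was higher, from 0.942 ± 0.224 to 2.06 ± 0.0787 CPM (1.13, SE 0.21, adjusted p = 0.003 by the same test), at a level near the bottom of the tested range. In the Rps3a3-low libraries alone Hsf4 did not pass (0.98, adjusted p = 0.0702 by the same test). Hsf1, Hsf2 and Hsbp1 did not pass in the pooled fit.

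The route that uses Bag3 and Hspb8 had 12 tested genes in its list, 2 of them higher and 0 lower, with a median of -0.01. Synpo2, the adaptor that BAG3 binds in chaperone-assisted selective autophagy, rose from 84.4 ± 5.17 to 109.6 ± 4.63 CPM (0.38, adjusted p = 0.00153 in edgeR's quasi-likelihood fit). Flnc, which encodes the client filamin C, was at 272 to 349 CPM in the controls and 333 to 515 CPM in the cKO, with overlap (0.52, adjusted p = 0.0255). Flnc no longer passed the adjusted p without control replicate 2, 3, 4 or 5 or cKO replicate 2 or 4 (adjusted p up to 0.0799). Of the 8 sarcomere and filament clients, which include Flnc, 3 were higher and 0 lower, with a median of 0.08. Des, which encodes the desmin that αB-crystallin binds, was at 782 ± 77.7 and 1048 ± 157 CPM (0.42, adjusted p = 0.0152), and Vim, which encodes vimentin of non-muscle cells, at 740.5 ± 17.6 and 899.9 ± 74.0 CPM (0.28, adjusted p = 0.0102). In the Rps3a3-low libraries alone neither passed (Des 0.28, adjusted p = 0.393; Vim 0.22, adjusted p = 0.226), and Des did not pass with the replicate block (0.39, adjusted p = 0.0743). 

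**Figure D4:**
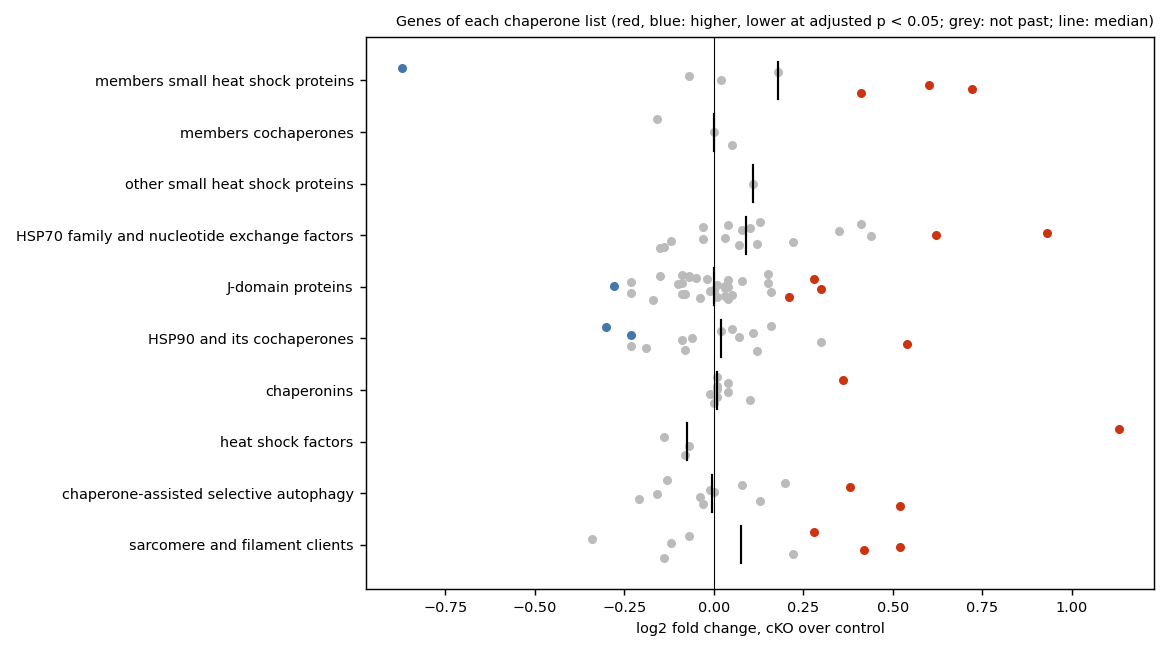
Log2 fold change of each tested gene in the cKO over the control (x axis), 1 row per list, with Hspb1 to Unc45b in the top 2 rows. Red points were higher and blue points lower past the adjusted p of 0.05, grey points did not pass, and black lines are list medians. The list medians of the lower 8 rows lie between -0.08 and 0.11, and Hspb8 at -0.87 lies furthest to the left.

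For the 3 members with the smallest adjusted p, the genes with the most similar pattern were sought by the root-mean-square difference of gene-centred log2 CPM over the 9 libraries, among 10801 protein-coding candidates. For Hspb8, whose own root-mean-square variation was 0.457, these were Gpsm1 (0.104), Ptprf (0.111) and Slc4a3 (0.111), with log2 fold changes of -0.78, -0.88 and -0.82. The nearest to Hspb1 (0.399) were Mn1 (0.0808), Efhd2 (0.0818) and Pdlim7 (0.0864), with log2 fold changes of 0.85, 0.75 and 0.79. Those nearest to Cryab (0.231) were Mob3a (0.035), Rras (0.0611) and Litaf (0.0621), with log2 fold changes of 0.38, 0.40 and 0.44. Mob3a no longer passed the adjusted p without control replicate 3 or 5 or cKO replicate 2 or 4 (adjusted p up to 0.0576). The libraries share the group contrast, so the likeness follows in part from it and carries no test.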

How the data were processed

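Poly(A)-selected, stranded RNA sequencing libraries of 5 control and 4 cKO ventricles were used, grouped by their labels. The authors deposited raw read counts per gene, 1 table for all libraries; the submitters' processing notes name STAR 2.4.2a, HTSeq 0.6.1 and mm10. The annotation and strand setting of the counting are not given in the sources used here. Controls were littermates, but no source used here ties a library to a litter, so p-values measure the spread between these samples. All 5 libraries labelled as controls were used, although the study's methods and its figure legend do not give one number of controls. The table has 0 unmapped sample columns.

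Symbols and exon lengths came from GENCODE on GRCm38. Counts were tested in R 4.3.3 with edgeR 4.0.16 (filterByExpr with a minimum count of 10, TMM, robust quasi-likelihood fit with genotype alone, two-sided, Benjamini-Hochberg over all 15318 genes). A call needed an adjusted p below 0.05 together with a fold over 1.5, the thresholds of the study's methods. The procedure was tested on simulated data. Named were all members, Arid1a, up to 4 genes past the adjusted p per list and the 3 nearest genes, at 5 CPM or more, of up to 3 members. Other marker genes and library levels were named after their values were seen. Members and lists were chosen with earlier results of these data known. Promoter sequences are from RefSeq. Alternatives were DESeq2 1.42.0, RLE and upper-quartile scaling, TMM without the 10 most abundant genes, other filters and the replicate block. Others were the library set as a term, the Rps3a3-low libraries alone and the level of Xist as a covariate. The library titles name no sex. Trends on GC content and length were also removed, and each library was left out in turn. Applying these alternatives to the other lists and to named genes outside the set was chosen after seeing the data. Each of the 4 pairs of libraries with the same replicate number was checked for shared deviations (correlations -0.05, 0.07, -0.01 and 0.30). No cKO library was closest to the control of its own number, which cannot exclude shared litters.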

Additional observations from a re-analysis of the deposited data

How the results depend on the processing

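Under 20 alternatives, Hspb8 passed both thresholds in all 20, Hspb1 and Cryab passed the adjusted p in 19 and Hspb2 in 15. With the 1.5-fold threshold as well, Hspb1 passed in 18 and Hspb2 in 12. In the Rps3a3-low libraries alone, 620 genes were called (518 shared with the 1030), 0 members were higher and 4 genes of the other lists were higher with 0 lower. By construction this fit holds only 5 libraries, of which 2 are controls, and Arid1a itself was at -0.33 (adjusted p = 0.0822 in edgeR's quasi-likelihood fit) there. Members lower numbered 2 with the library set as a term and 2 once trends on GC content and length were removed, since Unc45b passed. The genes of the other lists that were lower, 3 in the pooled fit, numbered 5 with DESeq2, 6 with the library set as a term and 10 (with 16 higher, 12 in the pooled fit) once those trends were removed. Why was not tested.

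With the replicate block, 888 genes were called, 3 members were higher and 1 was lower, and the genes of the other lists numbered 7 higher and 1 lower. No cKO library correlated best with the control of its own number. The check gave no sign of pairing by number but cannot exclude shared litters. In this paired fit Hspb3 was at -0.03 and Dnajb6 at 0.02.

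Leaving out each library gave 7 to 12 higher (7 without cKO replicate 4) and 1 to 5 lower genes of the other lists (5 without cKO replicate 1, 1 without cKO replicate 4), and log2 fold changes of -0.07 to 0.09 for Dnajb6, -0.05 to 0.08 for Hspb3 and -0.16 to 0.01 for Hspb6. Among values near 0, Dnajb6 changed sign to 0.01 with upper-quartile scaling, the 1 CPM filter and the GC and length correction, 0.03 with the library set as a term and 0.15 in the Rps3a3-low libraries. Hspb3 changed sign to -0.08 with the GC and length correction, and Bag3 to -0.05 there and -0.06 in the Rps3a3-low libraries. None of these passed the test.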

Other observations

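Within the 5 controls, the 2 Rps3a3-low libraries had higher levels of several members than the 3 Rps3a3-high libraries. Hspb6 was at 296 and 290 CPM in control replicates 1 and 2 and at 209.7 to 219 CPM in replicates 3 to 5, and Hspb2 at 43.2 and 45.4 against 30.2 to 32.1 CPM. Unc45b was at 301 and 300.2 against 245 to 272 CPM, and Cryab at 594 and 585 against 493 to 529 CPM. Hspb1 was at 65.4 and 61.1 against 45.1 to 53.0 CPM, and Hspb8 at 165 and 152 against 131 to 148 CPM. Bag3 was at 158 and 155 against 144 to 147 CPM. Hspb7 and Hspb3 overlapped between the sets. Dnajb6 went the other way, at 14.2 and 14.9 against 15.8 to 17.3 CPM. These sets were seen in the data and are not groups of the study, and no test was made. The share of all genes that split this way was not computed.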
